A study of Mus musculus with 30 samples.

Results

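The myosin heavy chains Myh6 and Myh7 are the motor proteins of the cardiac thick filament, and their transcripts were followed here across sex, diet and genotype in mouse left ventricle. Every probe set annotated to exactly Myh6 or Myh7 was taken, which gave 2 of the 8251 genes with a symbol, read by 3 of the 12422 non-control probe sets of the array. Myh6 was read by 101071_at. Myh7 was read by 98616_f_at and by 161547_f_at. The arrays came from C57BL/6 mice at 2 months of age, and each sample pooled left ventricular RNA from 2 animals. Females and males were either HCM or wild type and ate a casein-based or a soy-based diet. There were 4 arrays in each of the female and male casein HCM, casein wild-type and soy wild-type groups, and 3 arrays in each of the female and male soy HCM groups, 30 in all. The labels name no mutation, promoter or line and leave HCM unexplained; the letters usually stand for hypertrophic cardiomyopathy. Widely used mouse models of that disease carry a mutated alpha-myosin heavy chain, either as an edited Myh6 allele or as a transgene behind the Myh6 promoter. Whether these mice did is not given in the labels. The probe sequences were not examined, so it is not known whether 101071_at would read such a transcript. If it did, the values could not tell that transcript from the normal one.

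Myh6 encodes the alpha-myosin heavy chain, a fast ATPase that is the main cardiac myosin of the adult mouse ventricle. Myh7 encodes the slower beta-myosin heavy chain, which dominates the fetal mouse ventricle and slow skeletal muscle and is re-expressed in the adult ventricle under haemodynamic load. Thyroid hormone raises Myh6 and lowers Myh7 in rodents, and a switch from Myh6 towards Myh7 is a standard sign of the fetal gene programme, together with natriuretic peptides and skeletal alpha-actin. The genes neighbour each other in the same orientation, and only Mhrt, a cardiac long non-coding RNA, is listed between them in RefSeq.

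The regions just before the start sites are shown because both genes are classic targets of M-CAT elements, the sites of TEAD transcription factors. RefSeq lists 2 start sites for Myh7, 77 bases apart, and 1 for Myh6. The 250 bases before the upstream Myh7 start site lie at chr14:54994627-54994876 on the minus strand of GRCm38.p6, and those before the Myh6 start site at chr14:54966608-54966857 on the minus strand. Capitals mark the M-CAT core GGAATG.
Myh7: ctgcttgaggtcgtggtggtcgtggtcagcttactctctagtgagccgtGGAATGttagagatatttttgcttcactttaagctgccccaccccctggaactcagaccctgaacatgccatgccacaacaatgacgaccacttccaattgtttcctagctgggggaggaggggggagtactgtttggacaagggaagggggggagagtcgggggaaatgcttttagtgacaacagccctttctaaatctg
Myh6: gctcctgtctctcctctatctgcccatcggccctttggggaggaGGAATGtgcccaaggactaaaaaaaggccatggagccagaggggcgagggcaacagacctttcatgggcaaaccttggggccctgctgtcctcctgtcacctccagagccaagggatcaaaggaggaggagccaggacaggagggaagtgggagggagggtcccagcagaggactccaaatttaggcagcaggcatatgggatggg
Each sequence held 1 core, with its first base at position -201 for Myh7 and at -206 for Myh6 relative to the start site. Read on both strands, GGAATG occurred in 14.7% of the 32851 RefSeq windows that run from 250 bases before a start site to 50 after it. The window of the downstream Myh7 start site held none. The E-box CANNTG was present in the windows of both genes and in 72.3% of all windows. TATAAA was found in the Myh6 window and in neither Myh7 window, against 13.6% of all windows. Its first base in Myh6 was at position 1, after the start site and outside the bases printed above. Only these exact letters were searched, so the match does not show whether either gene has a TATA element before its start site. The CArG box was found in neither gene, against 1.63%. These matches describe letters only.

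Each gene also carries a microRNA in an intron, miR-208b in Myh7 at chr14:54975710-54975731 and miR-208a in Myh6 at chr14:54949072-54949093, both on the minus strand. The mature 3p sequences are shown because they are encoded within the members themselves; neither microRNA was analysed here. Capitals mark the seed, bases 2 to 8.
mmu-miR-208b-3p: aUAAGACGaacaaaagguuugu
mmu-miR-208a-3p: aUAAGACGagcaaaaagcuugu
The 22-base sequences share the same seed, UAAGACG.

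Expression is given as deposited log2 values. A difference of 1 on this scale is a doubling, and levels of different probe sets cannot be set against each other. Ranked by mean over the 30 arrays, Myh6 101071_at averaged 12.58 and lay at percentile 99.9 of all probe sets. Myh7 98616_f_at averaged 10.2 (percentile 97.5), and Myh7 161547_f_at averaged 7.36 (percentile 73.2). The Affymetrix suffix f marks a probe set whose probes may also match related transcripts, so both Myh7 probe sets could pick up other members of the family. The brighter 98616_f_at stands for Myh7 below unless 161547_f_at is named. Within groups the pooled SD was 0.314 for Myh7, 0.153 for 161547_f_at and 0.103 for Myh6. Over all arrays Myh7 had an SD of 0.62, at percentile 99.1 of all probe sets, while the SD of Myh6, 0.22, was at percentile 56.6.

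The arrays differed in exogenous control RNAs along the labelled groups. The bacterial Dap control averaged 7.51 on the 8 casein HCM arrays (7.185 to 8.073), and on no other array did it exceed 4.701. The hybridization controls divided the casein wild-type arrays: BioD minus BioC was 2.169 to 2.438 on replicates 1 and 2 of each sex (set A) and 0.499 to 0.629 on replicates 3 and 4 (set B). Median log2 expression was 6.11 to 6.23 on all 30 arrays. It differed by diet without overlap, at 6.109 to 6.188 on casein arrays and 6.198 to 6.225 on soy arrays. Every comparison of genotype or diet was therefore also one between such array sets, and the 2 cannot be told apart. Female and male arrays were spread alike over the sets. The labels do not say that the pools came from separate litters or days, so a p-value here reflects only the variation among pools, which may be technical in part. Because whole ventricle was measured, a lower share of a cell type and less RNA per cell cannot be told apart. The brightest ventricular markers were Myl2, the ventricular regulatory light chain, and Mb, myoglobin, at mean levels of 13.39 and 13.13. The brightest atrial markers were Clu (10.02), Nppa (9.09) and Myl7 (8.43), and the brightest skeletal muscle markers Pvalb (9.82), Myl1 (9.6) and Casq1 (8.69). Levels of different probe sets do not rank these tissues, and without detection calls the absence of any marker could not be judged.

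The first comparison asked how the myosin heavy chains differed between HCM and wild-type ventricles. Myh7 was higher in HCM, 2-fold on average over both sexes and diets by 98616_f_at and 1.14-fold by 161547_f_at. By 98616_f_at the rise was 2.46-fold on casein and 1.62-fold on soy. Myh6 did not fall: it was 1.11-fold higher on average, with a 1.21-fold rise on soy and no detectable change on casein.

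On casein, Myh7 read 10.95, 11.15, 10.90 and 10.75 in HCM females, against 9.26, 9.40, 9.64 and 9.65 in wild-type females. In males on casein it read 10.81, 11.13, 11.16 and 10.74 in HCM, against 9.62, 9.83, 9.69 and 10.14 in wild type. The lowest of the 8 casein HCM arrays lay above the highest of the 8 casein wild-type arrays, which held in this direction for 8.02% of all probe sets. The log2 difference was 1.297 ± 0.143 (SE; limma, adjusted p = 2.82e-08), with a 95% confidence interval of 1.004 to 1.59. It passed in females (1.454 ± 0.202, adjusted p = 3.74e-06), as did 33% of all probe sets, and in males (1.141 ± 0.202, adjusted p = 9.34e-05), as did 31.6%. Over both sexes 49% of all probe sets passed on casein, and the difference of Myh7 was the 20th highest.

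On soy, Myh7 read 10.62, 10.38 and 10.58 in HCM females, against 9.74, 9.51, 10.82 and 9.49 in wild-type females. In soy males it read 10.42, 10.50 and 10.46 in HCM, against 9.70, 9.72, 10.16 and 9.20 in wild type. All 3 HCM males lay above the 4 wild-type males, as was so in this direction for 10.9% of all probe sets. By contrast, wild-type female replicate 3, at 10.82, lay above every soy HCM array. The log2 difference on soy was 0.699 ± 0.154 (SE; limma, adjusted p = 0.00181), with an interval of 0.383 to 1.016, and 24.7% of all probe sets passed this test. It did not pass with array sets as a block of random effects (adjusted p = 0.115). In males it was 0.763 ± 0.218 (adjusted p = 0.0234), where 12.5% of all probe sets passed. That call was lost with array sets as random effects (adjusted p = 0.165) and when wild-type male replicate 4 (0.60, adjusted p = 0.0762), HCM male replicate 2 (0.74, 0.0848) or HCM male replicate 3 (0.76, 0.0884) was left out. In females the difference of 0.635 ± 0.218 did not pass (adjusted p = 0.0958), and 4.07% of all probe sets did. Without wild-type female replicate 3 the female difference was 0.95 (adjusted p = 0.00191). That array also had the highest Acta1, Nppa and Ankrd1 of its group: Acta1 was 11.8 against 9.22 to 10.61 on the other 3, Nppa 9.74 against 8.77 to 9.27 and Ankrd1 10.85 against 10.02 to 10.69. Its Myh6 value of 12.39 lay within the 12.26 to 12.48 of the others. Nppb (10.48 against 9.52 to 10.57), Myl7 (9.06 against 8.74 to 9.67) and Tnni1 (7.81 against 7.51 to 7.87) also lay within. Tnnt1 was just above the others (8.01 against 7.89 to 7.99) and Myl4 just below (7.6 against 7.62 to 7.88).

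Averaged over sex and diet, the HCM difference of Myh7 was 0.998 ± 0.105 (SE; limma, adjusted p = 8.46e-08), with an interval of 0.783 to 1.214. It was the 5th highest difference among the 12422 probe sets, of which 32.8% passed, 17.2% with a higher and 15.6% with a lower value in HCM.

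**Figure D1:**
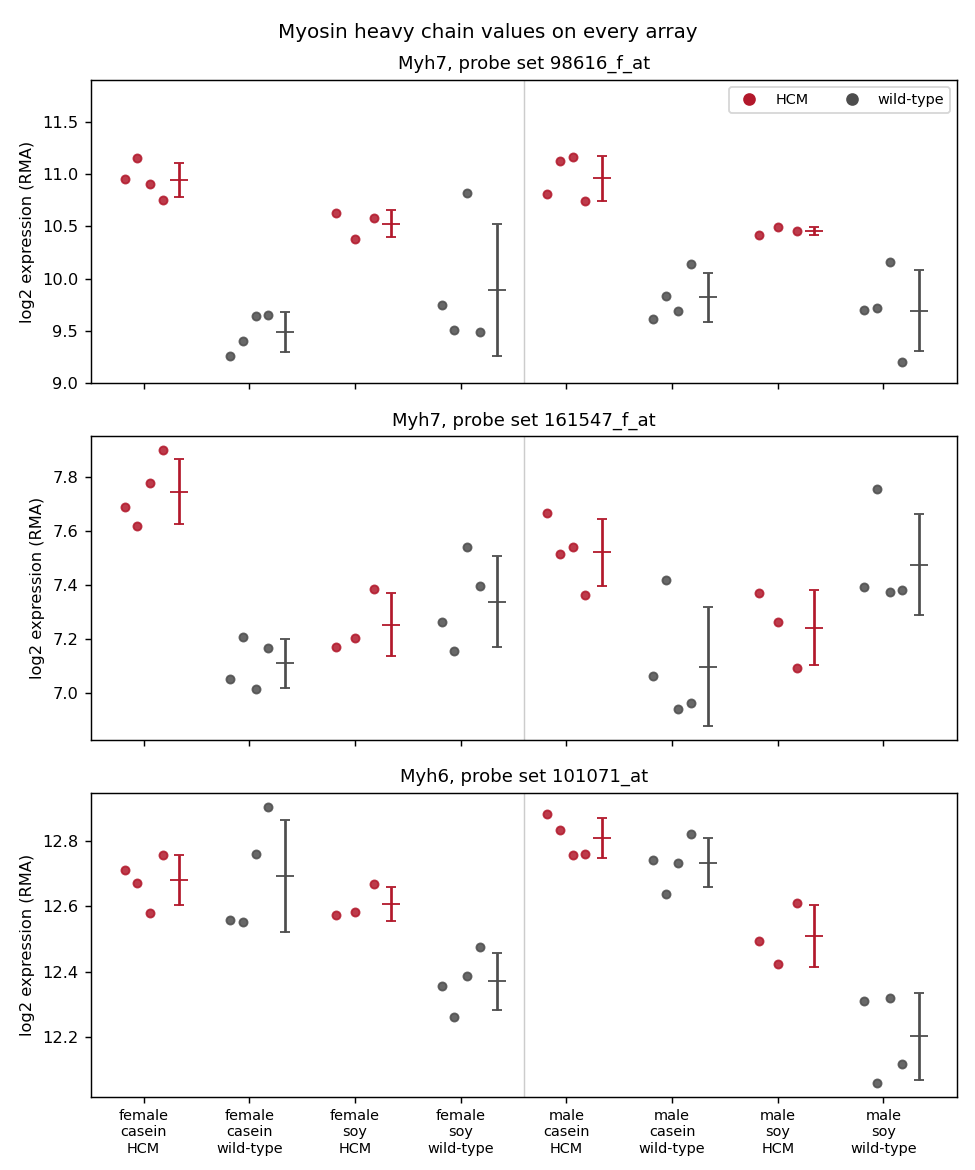
Log2 expression (vertical axis) of the 3 probe sets on each of the 30 arrays, by sex, diet and genotype; points are arrays, and the bars beside them give the group mean and SD (HCM in red, wild type in grey). By group mean, the casein HCM groups are highest for Myh7 in 98616_f_at and the soy wild-type groups are lowest for Myh6. In 98616_f_at 1 female soy wild-type array stands at 10.82, above the lowest casein HCM array at 10.74.

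The dimmer Myh7 probe set, 161547_f_at, followed this pattern on casein and not on soy. It read 7.69, 7.62, 7.78 and 7.90 in casein HCM females, against 7.05, 7.21, 7.02 and 7.17 in casein wild-type females. In casein males it read 7.67, 7.52, 7.54 and 7.36 in HCM, against 7.07, 7.42, 6.94 and 6.97 in wild type. The casein difference of 0.53 ± 0.0744 passed (limma, adjusted p = 1.42e-06), without overlap in females, as for 16.8% of all probe sets, and with overlap in males. On soy it read 7.17, 7.20 and 7.39 in HCM females, against 7.26, 7.15, 7.54 and 7.40 in wild-type females. In soy males it read 7.37, 7.26 and 7.10 in HCM, against 7.39, 7.76, 7.37 and 7.38 in wild type. The HCM arrays were on the low side there, and the difference of -0.159 ± 0.0804 did not pass (adjusted p = 0.146). The Myh7 rise on soy therefore rests on 98616_f_at alone. Over both diets the HCM difference of 161547_f_at was 0.185 ± 0.0548 (adjusted p = 0.0108). It did not pass with array sets as random effects (adjusted p = 0.165) or with casein wild-type set A only (0.14, adjusted p = 0.0692). The mean of both Myh7 probe sets gave 0.59 (adjusted p = 1.63e-07).

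Myh6 showed the opposite dependence on diet. On casein it read 12.71, 12.67, 12.58 and 12.76 in HCM females, against 12.56, 12.55, 12.76 and 12.90 in wild-type females. In casein males it read 12.88, 12.83, 12.76 and 12.76 in HCM, against 12.74, 12.64, 12.73 and 12.82 in wild type. The genotypes overlapped in both sexes, and the difference of 0.031 ± 0.0548 did not pass (limma, adjusted p = 0.662), with an interval from -0.081 to 0.143. On soy Myh6 read 12.57, 12.58 and 12.67 in HCM females, against 12.36, 12.26, 12.39 and 12.48 in wild-type females. In soy males it read 12.49, 12.42 and 12.61 in HCM, against 12.31, 12.06, 12.32 and 12.12 in wild type. Within each sex every soy HCM array lay above every soy wild-type array, as it did for 13.2% of all probe sets in females and 10.9% in males.

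The Myh6 difference on soy was 0.272 ± 0.0592 (SE; limma, adjusted p = 0.00158). It was 0.237 ± 0.0837 in females (adjusted p = 0.105) and 0.307 ± 0.0837 in males (adjusted p = 0.0183). The male call was lost with quantile normalization (0.15, adjusted p = 0.156), with array sets as random effects (adjusted p = 0.132), and without wild-type male replicate 2 (0.26, adjusted p = 0.0665) or HCM male replicate 3 (0.26, adjusted p = 0.126). Over both diets the HCM difference of Myh6 was 0.151 ± 0.0403 (adjusted p = 0.00499), with an interval of 0.069 to 0.234. An added quantile normalization reduced it to 0.04 (adjusted p = 0.403) and the soy difference to 0.13 (adjusted p = 0.0538). Neither passed with array sets as random effects (adjusted p = 0.106 over both diets and 0.0941 on soy). Other ventricular genes rose with Myh6 on soy: 11 of 14 measured ventricular cardiomyocyte markers were higher in soy HCM and 0 lower, where 12.3% of all probe sets were higher and 12.3% lower. Their mean level was 11.81 to 11.91 on the soy HCM arrays and 11.3 to 11.74 on the soy wild-type arrays. Their part in the Myh6 result was not tested.

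The second comparison asked whether diet changed the myosin heavy chains. Myh6 was higher on casein than on soy, 1.24-fold on average and 1.34-fold in wild type. By 98616_f_at, Myh7 was 1.37-fold higher on casein in HCM mice, a call that depended on the normalization, and its diet difference in wild-type mice did not pass, whereas 161547_f_at was lower on casein in wild type.

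In wild type, all 8 casein arrays had more Myh6 than any of the 8 soy arrays: the ranges were 12.55 to 12.9 on casein and 12.06 to 12.48 on soy. Such a separation in this direction occurred in 5.55% of all probe sets. The difference was 0.427 ± 0.0548 (SE; limma, adjusted p = 4.37e-07), and it passed in females (0.322 ± 0.0774, adjusted p = 0.00303) and in males (0.531 ± 0.0774, adjusted p = 6.81e-06). In HCM the Myh6 difference was 0.185 ± 0.0592 (adjusted p = 0.00826), made up of 0.072 ± 0.0837 in females (adjusted p = 0.513) and 0.299 ± 0.0837 in males (adjusted p = 0.0041). In HCM males the 4 casein arrays lay above the 3 soy arrays, as they did for 28.2% of all probe sets, and in HCM females the diets overlapped. The mean diet difference of Myh6 was 0.306 ± 0.0403 (adjusted p = 2.12e-07), and quantile normalization reduced it to 0.15, which still passed. Quantile normalization ended the Myh6 diet calls in HCM (0.06, adjusted p = 0.303), in HCM males (0.14, adjusted p = 0.111) and in wild-type females (0.18, adjusted p = 0.0542). The HCM call was also lost with array sets as random effects (adjusted p = 0.0938), and the wild-type female call with set A only (0.18, adjusted p = 0.149). Diet calls were common: 62.3% of all probe sets passed on average, 46% in wild type (24.8% in females and 37.8% in males) and 61.1% in HCM (43.8% in females and 48.8% in males). Of all probe sets 29% were higher and 33.3% lower on casein.

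The other ventricular markers moved with diet as Myh6 did. Of 14 measured, 13 were higher on casein and 0 lower, against the 29% and 33.3% of all probe sets, and their mean level on wild-type arrays was 11.89 to 12.15 on casein and 11.3 to 11.74 on soy. Myl2 was higher on casein by 0.28 ± 0.035 and Mb by 0.43 ± 0.044 (limma, adjusted p = 8.6e-08 and 3.13e-09). Over all 8251 genes with a symbol, 2548 were higher and 2632 lower on casein, with a median of -0.004. Whether these markers bear on the Myh6 difference was not tested.

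In HCM, Myh7 was 10.74 to 11.16 on the 8 casein arrays and 10.38 to 10.62 on the 6 soy arrays. The diets did not overlap, as was so in this direction for 19.0% of all probe sets. The difference was 0.459 ± 0.154 (SE; limma, adjusted p = 0.0119). It did not pass with quantile normalization (0.12, adjusted p = 0.53) or with array sets as random effects (adjusted p = 0.128). In HCM females it was 0.416 ± 0.218 (adjusted p = 0.125) and in HCM males 0.502 ± 0.218 (adjusted p = 0.0582), and neither passed alone. In wild type Myh7 was 9.26 to 10.14 on casein and 9.2 to 10.82 on soy, a difference of -0.139 ± 0.143 (adjusted p = 0.447) with an interval from -0.432 to 0.154. The mean diet difference of 0.16 ± 0.105 did not pass (adjusted p = 0.188). Without female soy wild-type replicate 3 it was 0.24 and passed (adjusted p = 0.00936). With quantile normalization it changed sign, to -0.12, and did not pass (adjusted p = 0.369). The dimmer probe set gave 0.386 ± 0.0804 in HCM (adjusted p = 0.000161) and -0.303 ± 0.0744 in wild type (adjusted p = 0.00148), the second of which did not pass with set A only (-0.22, adjusted p = 0.0579). In wild-type males the Myh7 probe sets had opposite signs, 0.125 ± 0.202 in 98616_f_at and -0.378 ± 0.105 in 161547_f_at (adjusted p = 0.00573 for the second). The mean of both gave -0.22 in wild type (adjusted p = 0.0425).

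The casein wild-type arrays allow a look within 1 diet and genotype. Myh7 was 9.53 ± 0.25 in set A and 9.78 ± 0.24 in set B, and Myh6 was 12.62 ± 0.09 in set A and 12.8 ± 0.08 in set B (SD, n = 4 each). The Myh6 ranges of 12.55 to 12.74 in set A and 12.73 to 12.9 in set B overlapped by a narrow margin. Both sets lay above the highest soy wild-type array for Myh6, at 12.48.

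The third comparison asked whether the HCM difference itself depended on diet. It did for both genes, in opposite directions. The HCM difference of Myh7 was larger on casein than on soy by 0.598 ± 0.21 (SE; limma interaction, adjusted p = 0.022), and 161547_f_at gave 0.689 ± 0.11 (adjusted p = 1.19e-05). The HCM difference of Myh6 was smaller on casein than on soy by -0.241 ± 0.0806 (adjusted p = 0.0162). An interaction was called for 45.2% of all probe sets, positive for 23.9% and negative for 21.3%. When array sets were treated as a random block, the interaction did not pass for Myh7 (adjusted p = 0.191) or for Myh6 (adjusted p = 0.148).

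**Figure D2:**
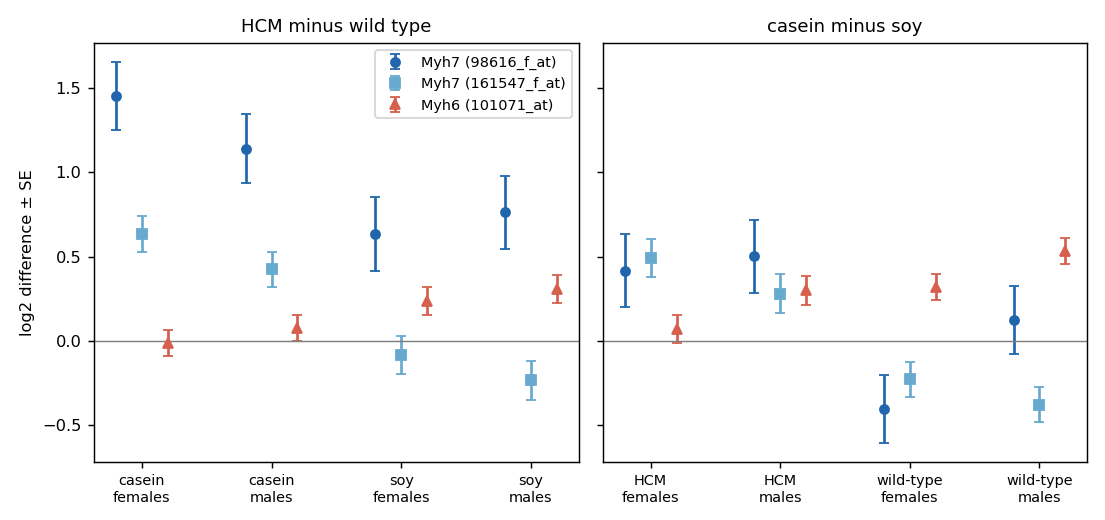
Log2 differences with standard errors from limma (vertical axis) for the 3 probe sets, HCM minus wild type in each diet and sex on the left and casein minus soy in each genotype and sex on the right. The HCM difference of Myh7 98616_f_at is 1.454 and 1.141 in casein females and males and 0.635 and 0.763 in soy females and males, while that of Myh6 is -0.013 and 0.075 in casein females and males.

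Sex made no detectable difference to either gene. Myh7 was 9.26 to 11.15 on the 15 female arrays and 9.2 to 11.16 on the 15 male arrays, and the female minus male difference was -0.022 ± 0.105 (SE; limma, adjusted p = 0.96) with an interval from -0.238 to 0.193. For Myh6 it was 0.024 ± 0.0403 (adjusted p = 0.866), with an interval from -0.058 to 0.107. Only 0.233% of all probe sets passed this test. The HCM difference in females minus that in males was 0.093 ± 0.21 for Myh7 (adjusted p = 0.957) and -0.079 ± 0.0806 for Myh6 (adjusted p = 0.933). The diet difference in females minus that in males was -0.306 ± 0.21 for Myh7 (adjusted p = 0.49) and -0.218 ± 0.0806 for Myh6 (adjusted p = 0.271). The unadjusted p of that Myh6 interaction was 0.0115. In limma 0% of all probe sets passed either interaction with sex, while 503 and 1755 probe sets had an unadjusted p under 0.05 for HCM and for diet.

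The balance of the genes was described by the log2 value of Myh7 minus that of Myh6 on each array. Because the probe sets differ in brightness, the sign and size of this value carry no meaning and only its change between groups does; no test was made on it. The balance lay further towards Myh7 in HCM under both diets. In casein females it was -1.74 ± 0.20 in HCM and -3.21 ± 0.09 in wild type, and in casein males -1.85 ± 0.23 in HCM and -2.91 ± 0.20 in wild type (SD, n = 4 each). In soy females it was -2.08 ± 0.13 in HCM (n = 3) and -2.48 ± 0.63 in wild type (n = 4), and in soy males -2.05 ± 0.12 in HCM (n = 3) and -2.51 ± 0.33 in wild type (n = 4). The HCM and wild-type arrays did not overlap in casein females, casein males or soy males. Single probe sets separated in this direction in 16.8% of cases in casein females and 10.9% in soy males. No such share was formed for differences between probe sets. In soy females 1 wild-type array, replicate 3, had the highest balance of its diet and sex, at -1.57.

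The HCM minus wild-type change of the balance was 1.47 in casein females, 1.07 in casein males, 0.40 in soy females and 0.46 in soy males. With 161547_f_at in place of 98616_f_at, it was 0.50 on casein and -0.43 on soy, so the soy shift did not keep its sign. By group means alone, diet moved the balance in opposite directions by genotype. The casein and soy arrays overlapped in HCM females, HCM males and wild-type males, and did not in wild-type females. Casein minus soy was 0.34 in HCM females and 0.20 in HCM males, against -0.72 in wild-type females and -0.41 in wild-type males. In wild-type females the shift was made up of -0.402 for Myh7 and 0.322 for Myh6, and in wild-type males of 0.125 for Myh7 and 0.531 for Myh6. Without female soy wild-type replicate 3 the wild-type female diet change was -0.42, and the HCM change in soy females was 0.70.

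**Figure D3:**
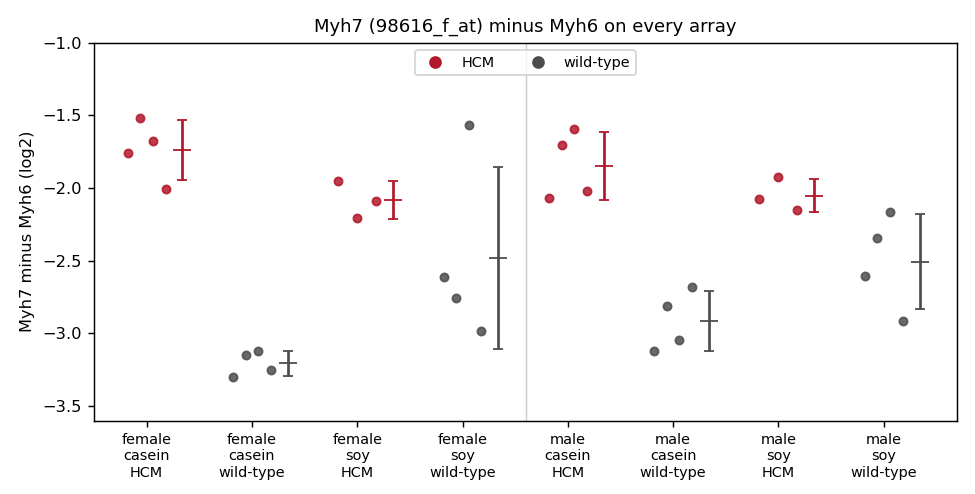
Log2 Myh7 (98616_f_at) minus log2 Myh6 (vertical axis) on each array by sex, diet and genotype, with the group mean and SD beside the points. HCM arrays lie between -2.21 and -1.52, and all wild-type arrays lie at -2.16 or lower apart from 1 soy female at -1.57.

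Ordered by group mean, Myh7 was highest in male casein HCM (10.96) and female casein HCM (10.94), then in female soy HCM (10.53) and male soy HCM (10.46). The wild-type groups followed: female soy (9.89), male casein (9.82), male soy (9.70) and female casein (9.49). Of the 7 neighbouring pairs in this order, 6 had overlapping ranges, and only female casein HCM and female soy HCM did not. Myh6 ran from male casein HCM (12.81) through male casein wild type (12.73), female casein wild type (12.69), female casein HCM (12.68), female soy HCM (12.61), male soy HCM (12.51) and female soy wild type (12.37) to male soy wild type (12.20). All 7 neighbouring pairs of that order overlapped. The top of both orders was the same group, but Myh7 was ordered by genotype first and Myh6 by diet first.

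The array-to-array variation of the genes within groups was weakly related. After the group means were removed, Myh7 and Myh6 had a Pearson r of 0.288 over the 30 arrays (permutation p = 0.18 within groups, adjusted 0.36 over 4 relations) and a Spearman rho of 0.289 (permutation p = 0.18, adjusted 0.36). Without the 2 arrays farthest from the median of Myh7, r was 0.306. The 2 Myh7 probe sets had r = 0.188 (permutation p = 0.455, adjusted 0.607) and rho = 0.081 (permutation p = 0.711, adjusted 0.711), and r was -0.052 without those 2 arrays.

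The genes most like Myh7 over the 8 group means, among the 4951 brighter genes, were Ppp1cb (r = 0.993), a catalytic subunit of protein phosphatase 1 that can dephosphorylate the myosin light chain, Ankrd1 (0.979), a stretch-responsive sarcomere protein, Ccng1 (0.971), Csnk1a1 (0.968) and Rnf13 (0.967). Myh6 reached 0.436 on the same measure. Within groups, over the 30 arrays, the nearest to Myh7 were Ctsk (0.757), a lysosomal protease, Acta1 (0.70), skeletal alpha-actin, Fhl1 (0.655), a LIM protein of the sarcomere, Dap (0.649), a mouse gene and not the bacterial control of that name, and Hcfc1r1 (0.626). Of the genes named over group means only Ankrd1, and of those named within groups only Acta1 and Fhl1, also belong to the fetal programme list.

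For Myh6 the nearest over group means were Idh3g (0.994), a subunit of mitochondrial isocitrate dehydrogenase, Pde4dip (0.991), myomegalin, Dmpk (0.986), the myotonic dystrophy kinase, Rnf14 (0.983) and Plin2 (0.983), a lipid droplet coat protein. Within groups they were Crip2 (0.868), Myom2 (0.84), an M-band protein of the thick filament, Lamb2 (0.738), Ctbp1 (0.733) and Nnt (0.732). These values rest on 8 means or on 30 arrays that share their array sets, and they were picked as the highest of many, so they carry no test.

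Other genes of the fetal programme, to which Myh7 belongs in the heart, rose in HCM as well. Of 15 other measured members, 9 rose in HCM and 0 fell, with a median log2 difference of 0.31, against 1527 higher and 1249 lower of all 8251 genes and a median of -0.001. Acta1 was higher in HCM by 1.13 ± 0.17, Ankrd1 by 1.12 ± 0.094, Nppb, the brain natriuretic peptide precursor, by 1.1 ± 0.13 and Enah, an actin regulator, by 0.83 ± 0.097 (SE; limma, adjusted p from 2.85e-09 to 1.18e-05). On casein 12 members were higher and 1 lower, where 25% of all probe sets were higher and 24% lower. On soy 6 were higher and 2 lower, where 12.3% of all probe sets were higher and 12.3% lower. Acta1 was higher by 1.54 ± 0.23 on casein and 0.72 ± 0.25 on soy, Ankrd1 by 1.65 ± 0.13 and 0.59 ± 0.14, and Nppb by 1.43 ± 0.18 and 0.77 ± 0.19. Nppa, the atrial natriuretic peptide precursor, was higher by 0.98 ± 0.13 on casein, against -0.06 ± 0.14 on soy (adjusted p = 0.766). Enah had the reverse order, with 0.57 ± 0.13 on casein and 1.1 ± 0.14 on soy. The casein minus soy interaction of HCM passed for 10 members in the direction of Myh7 and for 2 in the other. It was called in these directions for 23.9% and 21.3% of all probe sets.

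**Figure D4:**
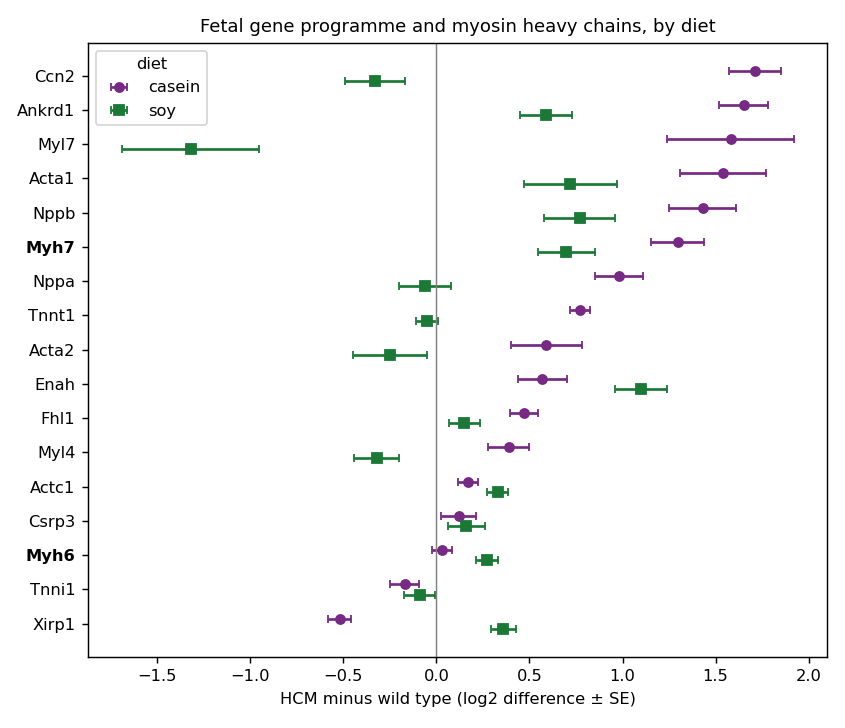
HCM minus wild-type log2 difference with its standard error (horizontal axis) on casein (purple circles) and on soy (green squares) for the fetal programme list with Myh7 and Myh6 added, ordered by the casein value. Myh7 stands at 1.297 on casein and 0.699 on soy, among Acta1, Nppb and Ankrd1, and Myh6 at 0.031 on casein and 0.272 on soy.

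Atrial genes moved with the casein HCM arrays as well. Of 10 atrial markers measured, 6 were higher and 1 lower in HCM on casein, where 25% of all probe sets were higher and 24% lower. On soy 0 were higher and 3 lower, where the shares over all probe sets were 12.3% each. Myl7, the atrial regulatory light chain, was higher by 1.58 ± 0.34 on casein and lower on soy, at -1.32 ± 0.37 (limma, adjusted p = 0.00037 and 0.0104). Clu was higher by 0.61 ± 0.068 on casein. The mean of the atrial markers was 7.33 to 7.8 on casein HCM arrays, 6.96 to 7.29 on casein wild-type arrays, 7.11 to 7.34 on soy HCM arrays and 7.21 to 7.49 on soy wild-type arrays. The part of atrial tissue in the casein values was not tested.

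Skeletal muscle, which also expresses Myh7, gave a mixed picture. Of its 18 measured markers 5 were higher and 4 lower in HCM, with a median of -0.06, where 17.2% of all probe sets were higher and 15.6% lower. Casq1, skeletal calsequestrin, and Myl1, the fast skeletal essential light chain, were higher in HCM on casein by 1.23 ± 0.12 and 1.27 ± 0.12. Pvalb, parvalbumin of fast fibres, was lower on both diets (-0.28 ± 0.061 on casein, -0.33 ± 0.066 on soy). Across the array sets the marker mean was 6.63 to 6.75 in casein HCM, 6.54 to 6.66 in casein wild type, 6.49 to 6.65 in soy HCM and 6.53 to 6.88 in soy wild type, and any part in the Myh7 result was not tested. Against the same shares of 17.2% and 15.6%, HCM counts among other cells were 4 higher and 1 lower of 10 smooth muscle and pericyte markers, 6 and 3 of 13 fibroblast and epicardial markers, 5 and 2 of 11 endothelial markers, 1 and 3 of 12 macrophage and lymphocyte markers, and 1 and 0 of 4 red blood cell markers.

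Of the other myosin heavy chains, 4 of 9 measured were higher in HCM and 0 lower, where 17.2% of all probe sets were higher and 15.6% lower. They were Myh8, the perinatal skeletal chain (0.26 ± 0.086), Myh9, a non-muscle chain (0.24 ± 0.075), Myh3, the embryonic skeletal chain (0.23 ± 0.044), and Myh11, the smooth muscle chain (0.21 ± 0.053; limma, adjusted p from 0.00028 to 0.0224). The largest of these, 0.26, compares with 0.998 for Myh7. Myh8, Myh9, Myh3 and Myh11 were also higher on casein than on soy, by 0.94 ± 0.086, 0.17 ± 0.075, 0.34 ± 0.044 and 0.42 ± 0.053. Of the 9 measured, 5 were higher and 2 lower on casein, where 29% of all probe sets were higher and 33.3% lower. The mean levels of Myh8 and Myh3, 4.86 and 4.36, were low on this array.

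Partners of the heavy chains in the thick filament had smaller HCM differences than the 0.998 of Myh7; no test was made between genes. Of 10 light chains and light chain kinases 3 were higher in HCM and 1 lower, with a median of 0.044, against 17.2% higher and 15.6% lower of all probe sets. Myl3, the ventricular essential light chain, was higher by 0.29 ± 0.034 and Myl2 by 0.23 ± 0.035, while Myl6b was lower (-0.20 ± 0.078, limma, adjusted p = 0.0478). Myl1 was higher on average (0.37 ± 0.085) and differed by diet, at 1.27 ± 0.12 on casein and -0.52 ± 0.13 on soy. Myl7, given above, had the widest split by diet of the list and did not pass on average (0.13). Of 4 thick filament and M-band proteins Myom1, myomesin, passed on average over both diets (0.37 ± 0.064), with 0.04 ± 0.087 on casein and 0.70 ± 0.094 on soy. The other 3 did not pass on average. Of these, Mybpc3, cardiac myosin-binding protein C, was lower on casein (-0.30 ± 0.053) and higher on soy (0.21 ± 0.057), and Myom2 was lower on casein (-0.44 ± 0.11; limma, adjusted p from 2.76e-05 to 0.00866). Mybpc3 and Myom2 were named here after their values were seen.

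Genes of thyroid hormone action, which acts on the balance of Myh6 and Myh7 in rodents, differed between HCM and wild type by at most 0.35 on the log2 scale, averaged over both diets, where they passed. Of 12 measured receptors, cofactors and deiodinases, 1 was higher and 4 lower in HCM, where 17.2% of all probe sets were higher and 15.6% lower. The lower genes were Nr1d1 (-0.35 ± 0.10), a nuclear receptor encoded opposite the thyroid hormone receptor gene Thra, Ncoa1 (-0.18 ± 0.045), a coactivator, and the retinoid X receptors Rxra (-0.17 ± 0.041) and Rxrb (-0.17 ± 0.029), which pair with thyroid receptors. On casein 1 member was higher and 5 lower (25% and 24% of all probe sets), and on soy 2 were higher and 1 lower (12.3% each of all probe sets). Thra itself, named after its values were seen, did not pass on average (-0.10 ± 0.047, limma, adjusted p = 0.112). It was lower in HCM on casein (-0.43 ± 0.064, adjusted p = 3.2e-06) and higher on soy (0.24 ± 0.069, adjusted p = 0.0147). Of 9 thyroid-responsive genes 2 were higher and 0 lower in HCM, against the same 17.2% and 15.6% of all probe sets. They were Slc8a1, the sodium-calcium exchanger (0.35 ± 0.10), and Atp2a2, the calcium pump of the sarcoplasmic reticulum (0.23 ± 0.043). On casein 3 were higher and 2 lower (25% and 24% of all probe sets), and on soy 3 were higher and 1 lower (12.3% each). Atp2a2 rose in HCM on soy (0.36 ± 0.063) and did not pass on casein (0.10 ± 0.059, adjusted p = 0.157). Kcnd2, at a low mean level of 3.71, was higher on soy (0.2 ± 0.066) and lower on casein (-0.21 ± 0.061). Ucp3 was lower on casein (-0.33 ± 0.11) and did not pass on soy (0.01 ± 0.12). Both were named after their values were seen. Other members of the list ran the other way, as seen once their values were known: Hcn2 was higher on casein (0.19 ± 0.065) and lower on soy (-0.34 ± 0.07). Kcna5 was higher on casein (0.66 ± 0.15), against -0.12 ± 0.16 on soy, and Thrsp was higher on casein (0.53 ± 0.095), against -0.25 ± 0.10 on soy; neither passed on soy.

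Of 28 transcription factors known from the Myh6 and Myh7 promoters, 4 were higher and 8 lower in HCM, where 17.2% of all probe sets were higher and 15.6% lower. Sp3, a GC-box factor, was higher by 0.67 ± 0.14, Mef2a, a muscle regulator, by 0.33 ± 0.07 and Wwtr1, a partner of the TEAD factors at M-CAT elements, by 0.28 ± 0.068. Mef2c was lower (-0.25 ± 0.056; limma, adjusted p from 0.000737 to 0.00208 for the 4). Mef2a followed Myh6 in being raised on soy (0.88 ± 0.10) and not on casein (-0.22 ± 0.096, adjusted p = 0.0569), and Wwtr1 was raised on casein (0.47 ± 0.092) and did not pass on soy (0.09 ± 0.099, adjusted p = 0.529). On casein 7 factors were higher and 14 lower (25% and 24% of all probe sets), and on soy 9 were higher and 4 lower (12.3% each of all probe sets).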

How the data were processed

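RNA of 30 left ventricular samples was measured on Affymetrix MG_U74Av2 arrays. The authors deposited log2 values, 1 for each probe set and array, for which the submitters' processing notes name RMA and Affymetrix Expression Console; neither version was given in the sources used. Background correction, quantile normalization and probe summaries are the usual steps of RMA. Detection calls were not possible without scanner files, and the number of arrays limits the precision.

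After 66 control probe sets were dropped, 12422 were tested. In the platform annotation 10833 had 1 gene symbol, 396 several and 1193 none. Groups followed the labelled sex, diet and genotype. A limma fit (R 4.3.3, limma 3.58.1, statmod 1.5.0) with 1 coefficient per group used all arrays, with 22 residual degrees of freedom and 5.86 from the prior. P-values are two-sided and were adjusted by Benjamini and Hochberg's method over all probe sets within each comparison, with a threshold of 0.05; the fit was tested on simulated data. Differences are HCM minus wild type, casein minus soy and female minus male. Gene lists were counted on the brightest probe set of each gene.

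Myh6 and Myh7 were always named. Likeness took the 5 highest correlations among the brighter 60% of genes. Each functional list gave up to 4 genes with the largest HCM difference that passed, and each cell type list its 3 brightest genes. Mybpc3, Myom2, Hcn2, Kcna5, Kcnd2, Thrsp, Ucp3, Thra, Tnni1, Tnnt1 and Myl4 were added after their values were seen. The members and lists were chosen with earlier results of these data known. Sequences are from RefSeq tables for GRCm38.p6, in which both genes were found. Alternatives covered the probe sets tested, a filter on the dimmest 40%, normalization, replicate and array set blocks, array weights, the prior variance, the arrays fitted, the Myh7 probe set and leaving out each array.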

Additional observations from a re-analysis of the deposited data

Results flagged for a closer look

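The HCM difference depended on diet by the interaction test for all 3 probe sets. Casein minus soy was 0.60 for Myh7 98616_f_at, 0.69 for Myh7 161547_f_at and -0.24 for Myh6, with adjusted p in limma of 0.022, 1.19e-05 and 0.0162. Diet and genotype coincide with array sets, so the interaction and the sets cannot be told apart.

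Of 24 combinations of a measure (3 probe sets and the Myh7 minus Myh6 difference) and a group of 4 arrays that were examined for an array far from the rest, 1 stood out: male soy wild-type replicate 2 read 7.76 in 161547_f_at, with a gap of 0.951 of the range of its group. Chance gives such an array in about 1 of 20 combinations, close to the 1 of 24 seen here. Female soy wild-type replicate 3, at 10.82 in 98616_f_at, had a gap of 0.809 of the range, below the critical value for 4 arrays.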

How the results depend on the processing

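The HCM rise of Myh7 over both diets and on casein, the mean diet difference of Myh6 (0.15 with quantile normalization) and the absence of mean sex calls for both genes kept their direction and side of the threshold under every alternative run. Leaving out each array in turn gave ranges for Myh7 of 0.96 to 1.08 for HCM, 1.26 to 1.35 on casein, 0.62 to 0.85 on soy and 0.44 to 0.68 for the interaction of HCM with diet. For Myh6 they were 0.14 to 0.17 for HCM, 0.25 to 0.29 on soy, 0.29 to 0.32 for diet and -0.26 to -0.21 for the interaction. The Myh7 diet difference ranged from 0.12 to 0.24 and passed only without female soy wild-type replicate 3 (0.24). Quantile normalization turned that difference to -0.12, which did not pass. When array sets were a random block (consensus correlation 0.179), the values were unchanged but these calls were lost: Myh6 HCM 0.15 and HCM on soy 0.27, Myh7 HCM on soy 0.70, the interactions, 0.60 for Myh7 and -0.24 for Myh6, diet in HCM (0.46 for Myh7, 0.19 for Myh6), HCM in soy males (0.76 for Myh7, 0.31 for Myh6) and, for 161547_f_at, HCM (0.19) and diet in HCM males (0.28). Quantile normalization ended the calls for Myh6 HCM (0.04), Myh6 on soy (0.13), the Myh7 interaction (0.47), diet in HCM (0.12 for Myh7, 0.06 for Myh6), Myh6 diet in HCM males (0.14) and wild-type females (0.18), Myh6 HCM in soy males (0.15), and 161547_f_at diet in HCM males (0.23). The Myh6 interaction did not pass with casein wild-type set A only (-0.15), nor the Myh7 interaction with set B only (0.47). The fits with 1 set also used fewer arrays, and the cause of these lost calls was not tested. The other Myh7 probe set gave -0.16 for HCM on soy, -0.23 for it in males and -0.38 for diet in wild-type males. For Myh7 minus Myh6 it gave 0.03 for HCM, 0.50 on casein, -0.43 on soy, -0.32 in soy females and -0.54 in soy males. With the mean of the Myh7 probe sets, Myh7 differed by 0.59 for HCM, 0.91 on casein and 0.27 on soy, and Myh7 minus Myh6 by 0.44, 0.88 and -0.002, and by -0.04 in soy males. Without the casein HCM arrays the balance changed by 0.43 with HCM and -0.57 with casein, and the dimmer probe set by -0.16 and -0.30, since only soy then compares genotypes and only wild type compares diets.

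The replicate numbers did not pair the arrays: of 99 same-numbered pairs 21 had deviations correlated above 0.1 (median -0.012), and 9 of 30 arrays correlated best with their own number. With a replicate block the HCM difference was 0.98 for Myh7 and 0.16 for Myh6, and no Myh6 or Myh7 result of the mean effects and interactions changed its call. Counts of called probe sets moved by over 1.5 times under the set block (HCM 1194 against 4076, soy 343 against 3064, casein 3395 against 6088, interaction with diet 2616 against 5616) and under array weights (soy 5210, sex 93 against 29). They also moved without the casein HCM arrays (HCM 2499, sex 14), with set A only (sex 19), and where fewer probe sets were tested (interaction with diet 3717 and 3718, diet 5054 against 7733). No probe set passed an interaction with sex in the fit of all arrays, but up to 3 did for HCM (without female casein HCM replicate 2) and up to 137 for diet (array weights). With 3 or 4 arrays a group, differences within a sex on soy were near the limit of what passed.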
